A study of Spinacia oleracea with 24 samples.

Results

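Leaves of spinach grown at low nitrogen (LN, 50 ppm) were compared between the end and the middle of the dark period, a stretch of the daily cycle with no light at either sampling. The comparison used 3 LN libraries from the end of dark and 3 from the middle of dark, which are 6 of the 24 messenger RNA libraries of the study and were chosen by their labels. The same 2 times at high nitrogen (HN, 200 ppm), with 3 libraries each, are given beside them. Plants at both nitrogen levels were of the cultivar Space, were 48 days old and stood in turface, a medium without soil, with 8 h of light a day. The labels call the plants of a group independent and place all sampling within 1 day. They do not say whether the same plants were sampled at several times, or whether the middle of dark came before or after the end of dark, so the p-values below treat every leaf sample as independent.

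Expression is given as FPKM, fragments scaled by transcript length and by library depth, as the authors deposited it. The 6 libraries held 18878203 to 25252705 fragments in genes, recovered from the steps between FPKM values. Of 25494 genes, 16740 had at least 1 FPKM in at least 3 of the 6 libraries and were tested. The leaf label was checked on 7 mesophyll markers, the Rubisco small subunits and chloroplast carbonic anhydrases. Their summed level was 18469, 9658 and 12986 FPKM at the end of dark, against 21699, 22421 and 9414 FPKM at the middle of dark. None of the 7 was at 0 in any library and none passed the limma test (0 at an unadjusted p under 0.05, 0 by limma-voom). The libraries are bulk RNA, in which fewer cells of a type and less RNA per cell cannot be told apart. Gene names are those of the deposited table and rest on similarity to proteins of other species, so the roles given below are the roles of the proteins that lent the names, mostly from Arabidopsis.

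The plant clock is a loop of transcription factors that repress and activate each other in turn through day and night. The MYB-related factor LHY peaks around dawn and represses evening genes, the pseudo-response regulators follow one another from morning to evening and repress LHY, and the evening complex of ELF3, ELF4 and LUX represses day genes during the night. At night leaves live on starch that beta-amylases and other enzymes release from the chloroplast, and the clock is known to set the pace at which that store is used so that it lasts until dawn.

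At the end of dark the LN leaves held the morning clock genes LHY, LNK1 and LNK2 at high levels that they lacked at the middle of dark. All changes are end of dark minus middle of dark on the log2 scale. These 3 genes rose by more than 5, as did the B-box gene MIP1B and, outside the clock, Rcbtb2 and Creg2. Rcbtb2 had the largest rise of all genes tested, at 6.64. The ELF4-like gene EFL1 (Spo11195) fell by 5.19, while a second gene of that name (Spo21006) did not pass the test. Higher members numbered 7 of 19 in the light-harvesting antenna list (0 lower) and 10 of 57 in the heat shock list (2 lower). Of the mixed list of abscisic acid genes and protein phosphatases 2C, 17 of 73 were higher and 2 lower. Of WRKY and NAC factors 12 of 49 were higher and 0 lower. Other lists also had 7 or more higher, such as cell wall with 7 of 94 (5 lower), against 5.88% higher over all genes tested. No gene of the photosystem, ribosomal protein and proteasome lists passed the test. In numbers, 1382 genes passed a limma test at an adjusted p under 0.05, which is 8.26% of those tested. Of these, 985 were higher at the end of dark (5.88% of those tested) and 397 were lower (2.37%). The difference was at least 1 on the log2 scale in 705 of the higher genes and 189 of the lower genes. Of the higher genes, 878 had their highest LN mean of the 4 sampling times at the end of dark, 65 in mid light and 42 when the light ended. Of the lower genes, 345 had their lowest LN mean at the end of dark, and their highest LN mean fell at the end of light in 183 and at the middle of dark in 176.

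These counts rest on a spread that was estimated over all 24 libraries and that was larger in LN leaves at both dark times. The median SD over genes was 0.322 at the end of dark and 0.276 at the middle of dark in LN leaves on the log2 scale, against 0.231 and 0.207 at the same times in HN leaves. In mid light the median SD was 0.235 in LN and 0.277 in HN leaves, and at the end of light 0.303 and 0.219. With the 12 LN libraries alone, 624 genes passed (3.73% of those tested), 616 of them among the 1382, and with the 6 compared libraries alone 152 passed (0.908%), all among the 1382. Without replicate 2 of the middle of dark 734 genes passed, and without replicate 3 of the end of dark 756. Scaled to a common sum of FPKM, 664 genes were higher and 608 lower, so that the share of higher genes was 52.2% against 71.3% under the authors' scaling, and the median over all genes moved to -0.14 from near 0.

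Among the morning genes of the clock, 5 of 7 rose and 2 did not pass the test, with a median log2 difference of 1.75. Of all genes tested 5.88% were higher and 2.37% lower, and their median was -0.008. LHY (Spo01117, chromosome 2, 59058703 to 59070547 in Sp75) had 1457, 963 and 1115 FPKM at the end of dark, against 16.2, 24.3 and 21.7 FPKM at the middle of dark. Every end-of-dark leaf was above every middle-of-dark leaf, and LHY rose by 5.76 (SE 0.30, adjusted p = 6.8e-11). Over all genes tested the groups did not overlap in 11.2% with the end of dark higher and in 8.45% with the end of dark lower. The LNK proteins are coactivators that work with RVE8 on afternoon and evening genes. LNK2 (Spo06774) had 106, 79.8 and 83.3 FPKM at the end of dark, against 0.586, 1.32 and 0.982 FPKM at the middle of dark. LNK1 (Spo07301) had 111, 88.1 and 109.9 FPKM at the end of dark, against 0.545, 3.68 and 1.33 FPKM at the middle of dark. Both were near 1 FPKM in most middle-of-dark leaves and stood far apart between the groups, with log2 differences of 5.54 (SE 0.24, adjusted p = 7.9e-12) for LNK2 and 5.34 (SE 0.26, adjusted p = 4.6e-11) for LNK1. RVE8 (Spo04754), itself a MYB-related activator, had 419, 309 and 342 FPKM at the end of dark, against 105, 161 and 66.9 FPKM at the middle of dark. Its middle-of-dark level was not low, and it rose by 1.75 (SE 0.31, adjusted p = 0.0010). RVE5 (Spo01697), a relative of RVE8, had 26, 23.4 and 30.7 FPKM at the end of dark, against 15.6, 14.3 and 14.1 FPKM at the middle of dark, a log2 difference of 0.82 (SE 0.20, adjusted p = 0.015) in groups that did not overlap. That call ended with the 12 LN libraries alone (adjusted p = 0.0502), under the common sum of FPKM (0.062) and without replicate 3 of the end of dark or replicate 2 of the middle of dark (up to 0.081). RVE1 (Spo19963), a dawn-phased factor that links the clock to auxin, had 58.9, 115 and 52.9 FPKM at the end of dark, against 52.9, 64.9 and 43.7 FPKM at the middle of dark, in groups that overlapped (log2 difference 0.41, adjusted p = 0.46). RVE6 (Spo04438) had a log2 difference of 0.12 (adjusted p = 0.77).

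**Figure D1:**
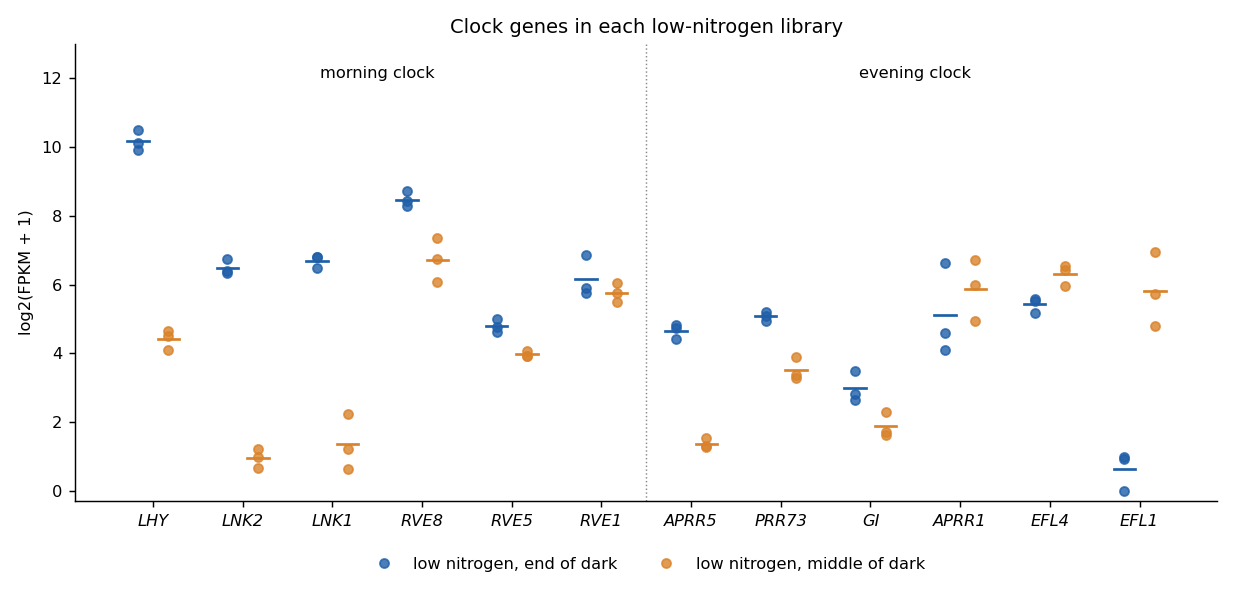
Levels of 12 clock genes as log2(FPKM + 1) in each LN leaf sample, with the end of dark in blue on the left and the middle of dark in orange on the right for each gene; points are libraries and bars group means (n = 3). LHY, LNK1 and LNK2 stand furthest apart with the end of dark higher, and EFL1 (Spo11195) with the end of dark lower. APRR1 and RVE1 overlap.

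The evening clock list also held the pseudo-response regulators. Of its 16 tested genes 5 were higher, 2 lower and 9 not past the test (median log2 difference 0.26). The higher genes were GI and genes named after pseudo-response regulators, and both lower genes were relatives of ELF4. A second gene named EFL1 (Spo21006, log2 difference -0.070) and a second PRR73 (Spo04043, 0.21) did not pass. Nor did TIC (Spo08380, 0.95) and ADO1 (Spo24323, 0.30). The largest fall was that of EFL1 (Spo11195), a relative of the evening complex member ELF4, at 0, 0.955 and 0.88 FPKM at the end of dark, against 122, 51.9 and 26.6 FPKM at the middle of dark. Its end-of-dark leaves held almost no transcript, whereas its middle-of-dark leaves differed from each other by several fold, and the log2 difference was -5.19 (SE 0.39, adjusted p = 4.5e-08). EFL4 (Spo25307), a second relative of ELF4, had 44.7, 47 and 35.3 FPKM at the end of dark, against 92.5, 84.7 and 61.6 FPKM at the middle of dark. It fell by 0.88 (SE 0.19, adjusted p = 0.0061). The pseudo-response regulators are named for their likeness to two-component response regulators, and those of the clock repress LHY. APRR2 and APRR8, given below, entered the list by protein name, and no role in the clock is claimed for them. APRR5 (Spo01087) had 27.1, 20.3 and 25.4 FPKM at the end of dark, against 1.44, 1.88 and 1.42 FPKM at the middle of dark. It rose by 3.29 (SE 0.18, adjusted p = 1.2e-10). PRR73 (Spo13065) had 35.5, 32.9 and 29.7 FPKM at the end of dark, against 8.72, 13.9 and 9.36 FPKM at the middle of dark. It rose by 1.55 (SE 0.27, adjusted p = 0.0011). Neither gene's groups overlapped, and both genes were higher at a time without light. A second gene named APRR5 (Spo22291) was at 1.34, 8.34 and 3.07 FPKM at the end of dark, against 0.65, 0.592 and 0.718 FPKM at the middle of dark, and missed the threshold (log2 difference 1.43, adjusted p = 0.052). It passed without replicate 1 of the end of dark, at 1.9 (adjusted p = 0.010), and with a pseudocount of 0.1 (adjusted p = 0.041). APRR1 (Spo08124), the spinach gene named after TOC1, had 16.2, 98.5 and 23.3 FPKM at the end of dark, against 104, 62.2 and 29.7 FPKM at the middle of dark. Its groups overlapped, because replicate 2 of the end of dark was close to the highest middle-of-dark leaf (log2 difference -0.77, adjusted p = 0.42). Without that leaf APRR1 was past the threshold and lower, at -1.53 (adjusted p = 0.026). GI (Spo04360), a large protein that stabilises clock and flowering regulators in the evening, had 6.04, 10.1 and 5.22 FPKM at the end of dark, against 3.87, 2.3 and 2.08 FPKM at the middle of dark. It rose by 1.1 (SE 0.32, adjusted p = 0.038). That call ended with the 12 LN libraries alone (adjusted p = 0.062), under the common sum of FPKM (0.080) and without replicate 2 of the end of dark or replicate 2 or 3 of the middle of dark (up to 0.18). ELF3 (Spo14415), the scaffold of the evening complex, was at 19.6, 24.7 and 21 FPKM at the end of dark, against 24.6, 19.6 and 22.5 FPKM at the middle of dark, with no difference past the test (log2 difference -0.028, adjusted p = 0.97). BOA (Spo00124), named after a relative of LUX, was at 20.3, 31.6 and 16.5 FPKM at the end of dark, against 47.6, 42.1 and 15.5 FPKM at the middle of dark (log2 difference -0.50, adjusted p = 0.40). ADO3 (Spo25748), named after the blue-light receptor FKF1, was at 0.611, 2.39 and 0.96 FPKM at the end of dark, against 4.37, 2.4 and 3.84 FPKM at the middle of dark (log2 difference -1.02, adjusted p = 0.13). The BOA groups overlapped, and without replicate 3 of the middle of dark BOA was past the threshold at -0.99 (adjusted p = 0.016). Those of ADO3 touched, with its replicate 2 at nearly the same level at both times. The remaining genes past the test, APRR2 (Spo23421) and APRR8 (Spo06664), differed by 0.69 and 0.73 with adjusted p of 0.046 and 0.044, and both calls ended with the 12 LN libraries alone, under the common sum of FPKM and in 6 and 4 of the 6 fits without 1 library (up to 0.20 and 0.22).

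The position of the dark samples in the LN day can be read from the group means of the 4 times. LHY averaged 1178 ± 253 FPKM at the end of dark, 234 ± 30.7 in mid light, 17.5 ± 7.25 when the light ended and 20.7 ± 4.11 in mid dark (SD, n = 3 each). APRR5 (Spo01087) averaged 24.3 ± 3.56 FPKM at the end of dark, 39 ± 5.86 in mid light, 14.6 ± 3.76 when the light ended and 1.58 ± 0.264 in mid dark. EFL1 (Spo11195) averaged 0.612 ± 0.531 FPKM at the end of dark, 0 ± 0 in mid light, 44.8 ± 9.35 when the light ended and 66.7 ± 49.2 in mid dark. The end of dark was thus the highest sampled time of LHY, an intermediate time of APRR5, whose highest mean came at the middle of light, and a low point of EFL1, whose highest mean was that of the middle of dark.

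Genes that the clock is known to drive, the clock output list of Dof, CONSTANS-like, B-box and phytochrome-interacting factors with the florigen relative HD3A, had 11 of 22 tested genes higher, 5 lower and 6 not past the test (median log2 difference 0.77). BBX24 (Spo19461), a B-box factor of light signalling, had 119, 107 and 133 FPKM at the end of dark, against 6.63, 9.17 and 13.4 FPKM at the middle of dark. It rose by 3.53 (SE 0.23, adjusted p = 5.5e-09). CDF3 (Spo08108), a cycling Dof factor of the kind that represses flowering genes in the morning, had 113, 120.5 and 155 FPKM at the end of dark, against 16, 12.6 and 19.2 FPKM at the middle of dark. It rose by 2.95 (SE 0.25, adjusted p = 3.1e-07). BBX19 (Spo05036) had 96.9, 69 and 81.8 FPKM at the end of dark, against 14, 21.2 and 23.8 FPKM at the middle of dark. It rose by 2.03 (SE 0.20, adjusted p = 2.4e-06). In all of these the lowest end-of-dark leaf lay far above the highest middle-of-dark leaf. Of the other output genes, COL5 (Spo21162) differed by 4.18, HD3A (Spo25173) by 3.98, the CDF1 genes Spo10686 and Spo04720 by 2.03 and 2.51, COL2 (Spo12296) by 1.71, and COL4 (Spo22109) by 1.05 on the log2 scale, all higher at the end of dark. The CONSTANS-like genes COL15 (Spo19195) and COL9 (Spo24974) fell, by 2.31 and 0.75. HD3A, named after the rice florigen that moves from leaf to shoot tip, had 161, 66.6 and 171 FPKM at the end of dark, against 4.37, 8.68 and 8.31 FPKM at the middle of dark. Its replicate 2 was the lowest leaf of the end of dark and still several fold above all middle-of-dark leaves (adjusted p = 5.8e-04). Of 12 photoreceptors and their partners, 3 passed, all higher. The blue-light receptor CRY1 (Spo23854) had 328, 347 and 301 FPKM at the end of dark, against 118, 119.6 and 143 FPKM at the middle of dark, a log2 difference of 1.35 (SE 0.17, adjusted p = 6.7e-05) with little spread in either group.

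**Figure D2:**
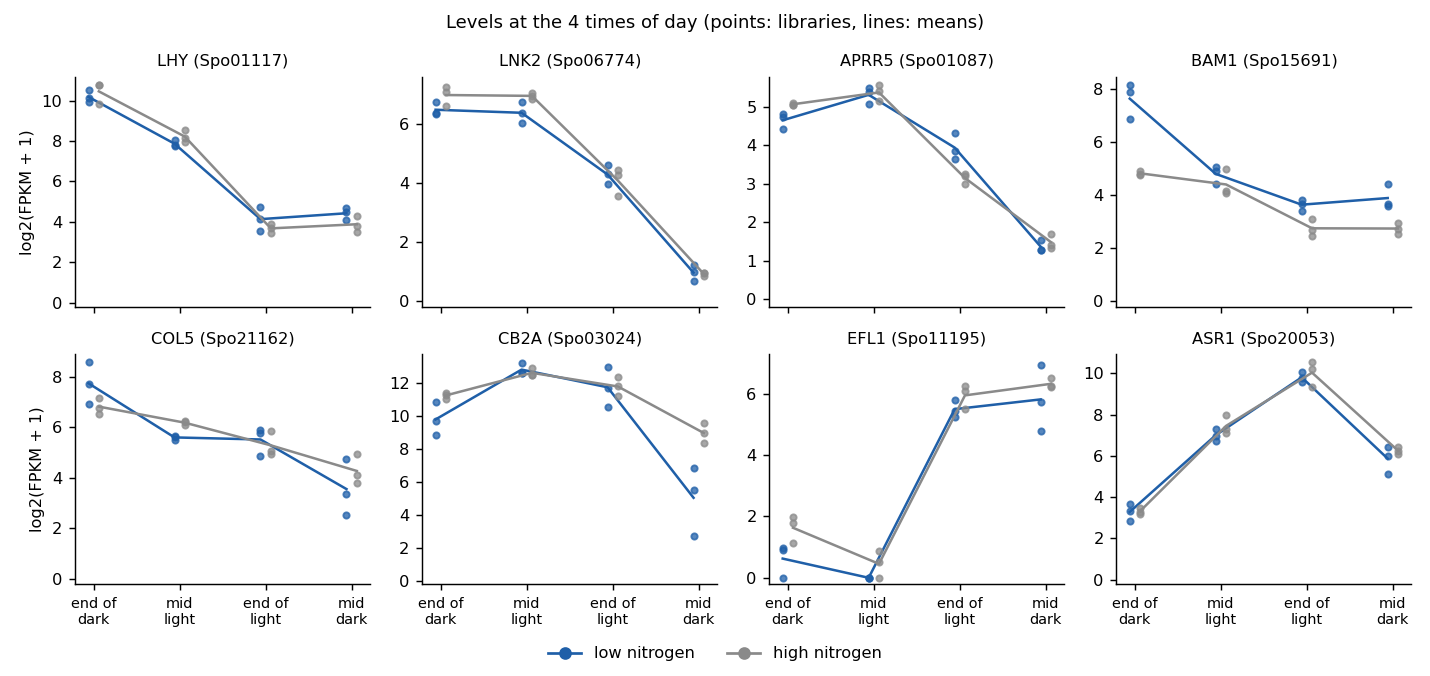
Levels of 8 genes as log2(FPKM + 1), with points for libraries and lines for group means (n = 3), at the 4 times of day, with LN in blue and HN in grey. LHY, LNK2, BAM1 and COL5 have their highest LN mean at the end of dark, the antenna gene CB2A in the light and ASR1 at the end of light.

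Outside the clock, the largest increases among named genes with at least 5 FPKM were found in Rcbtb2 (Spo15147), MIP1B (Spo03899) and Creg2 (Spo07603). Rcbtb2, named after an animal protein with RCC1 and BTB domains, had 286, 269.9 and 330.2 FPKM at the end of dark, against 1.78, 2.23 and 1.92 FPKM at the middle of dark. It rose by 6.64 (SE 0.30, adjusted p = 1.4e-11). Its 3 leaves of each time were close together. MIP1B, a B-box microprotein in Arabidopsis, had 95.8, 73.2 and 84.9 FPKM at the end of dark, against 0.242, 0.329 and 0.396 FPKM at the middle of dark. It rose by 6.01 (SE 0.30, adjusted p = 4.6e-11). Creg2, named after an animal glycoprotein, had 1050.2, 476 and 560.5 FPKM at the end of dark, against 14.1, 46.5 and 4.31 FPKM at the middle of dark, a log2 difference of 5.39 (SE 0.57, adjusted p = 7.1e-06), with a wide spread among the middle-of-dark leaves. TIFY10A (Spo09995), a JAZ repressor of the jasmonate pathway, had 74.7, 199 and 76.4 FPKM at the end of dark, against 3.44, 11.8 and 2.92 FPKM at the middle of dark. It rose by 4.12 (SE 1.13, adjusted p = 0.026), and its call ended in 4 of the 6 fits that left out 1 library (adjusted p up to 0.11).

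Of 32 tested genes of starch breakdown, 2 were higher, 1 was lower and 29 did not pass, a share near that called over all genes tested (median log2 difference -0.11). BAM1 (Spo15691), a chloroplast beta-amylase that hydrolyses starch to maltose, had 117, 236 and 288 FPKM at the end of dark, against 11.8, 11.1 and 20.4 FPKM at the middle of dark. The end-of-dark leaves were 14.8 times the middle-of-dark leaves by their means, the groups lay far apart, and the log2 difference was 3.75 (SE 0.30, adjusted p = 1.4e-07). BAM9 (Spo09821), a relative that lacks catalytic activity, had 78.1, 87 and 85.1 FPKM at the end of dark, against 28, 39.4 and 26.9 FPKM at the middle of dark. It rose by 1.4 (SE 0.26, adjusted p = 0.0018). PHS2 (Spo03283), the cytosolic glucan phosphorylase that handles maltose-derived glucans, had 41.3, 25.3 and 29.3 FPKM at the end of dark, against 68.2, 64.5 and 51.6 FPKM at the middle of dark. It fell by 0.94 (adjusted p = 0.016), a call that ended with the 12 LN libraries alone (0.086) and in 4 of the 6 fits that left out 1 library (up to 0.079). The enzymes that open the starch granule did not pass with all libraries and the authors' scaling. R1 (Spo25313), the dikinase that phosphorylates starch to loosen it, had 36.3, 21.3 and 21.4 FPKM at the end of dark, against 45.1, 61.8 and 26.6 FPKM at the middle of dark (log2 difference -0.70, adjusted p = 0.20), and it passed without replicate 3 of the middle of dark (adjusted p = 0.045). DSP4 (Spo30025), the phosphatase that removes those phosphates again, had 78.5, 71.4 and 80.4 FPKM at the end of dark, against 110.0, 109.6 and 115 FPKM at the middle of dark (log2 difference -0.54, adjusted p = 0.086). Its groups did not overlap, with the end of dark lower, and it passed under the common sum of FPKM (adjusted p = 0.025). BAM3 (Spo09720), the main beta-amylase of leaf starch breakdown at night in Arabidopsis, had 31.7, 113 and 17.9 FPKM at the end of dark, against 78, 74.1 and 19.5 FPKM at the middle of dark, with both groups spread widely and overlapping (log2 difference -0.26, adjusted p = 0.84). Without replicate 2 of the end of dark and replicate 3 of the middle of dark together, its log2 difference was -1.63 (adjusted p = 0.0094), past the threshold, and no single library left out gave a call. Of 19 genes of starch synthesis 1 passed. SS1 (Spo02503), the enzyme that elongates the glucan chains, had 22.8, 10.9 and 18.9 FPKM at the end of dark, against 44.5, 64.1 and 45.4 FPKM at the middle of dark. It fell by 1.53 (SE 0.26, adjusted p = 9.0e-04), with no overlap between the groups. A mixed list of 58 genes linked to sugar starvation had 5 members higher and 4 lower, with a median log2 difference of 0.013. It also held trehalose-phosphate synthases and phosphatases and subunits of the SnRK1 kinase. Its counts therefore do not describe starvation-induced genes alone. The trehalose-phosphate phosphatase TPPH (Spo09872) had 7.5, 12.9 and 10.8 FPKM at the end of dark, against 3.47, 2.17 and 3.78 FPKM at the middle of dark (log2 difference 1.45, SE 0.30, adjusted p = 0.0043), and 12KD (Spo21332), named after an auxin-repressed protein, had 12.8, 105 and 8.28 FPKM at the end of dark, against 568, 361 and 189 FPKM at the middle of dark. The groups of this last gene did not overlap, but its replicate 2 at the end of dark was several fold above the other 2 (log2 difference -3.83, SE 0.98, adjusted p = 0.018), and the call ended in 4 of the 6 fits without 1 library (up to 0.11).

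The light-harvesting antenna proteins bind the chlorophyll that feeds the photosystems, and their genes are known to respond to both light and clock. Here 7 of 19 tested antenna genes passed, all higher at the end of dark, with a median log2 difference of 1.23. CB2A (Spo03024) had 1842, 824 and 462 FPKM at the end of dark, against 44.6, 115 and 5.67 FPKM at the middle of dark. CB2A (Spo03025) had 225, 159 and 45.8 FPKM at the end of dark, against 3.27, 16.5 and 0.703 FPKM at the middle of dark. These are 2 of 4 tested genes of that name, the other 2 not past the test. They have consecutive identifiers, so that reads may be shared between them. Replicate 3 was the lowest leaf of both groups and the middle-of-dark leaves spread over more than an order of magnitude, yet the groups did not overlap in either gene. Spo03024 rose by 4.76 (SE 0.74, adjusted p = 4.1e-04), and Spo03025 by 4.57 (SE 0.63, adjusted p = 1.3e-04). CB4 (Spo25138), CAB36 (Spo05009) and LHCB3 (Spo10927) differed by 2.95, 2.89 and 3.33, and the 2 genes named CB12 (Spo14399 and Spo11309) by 1.58 and 1.52. The antenna genes summed to 40686, 23197 and 21706 FPKM at the end of dark, against 14105, 24847 and 5409 FPKM at the middle of dark, and these sums overlapped because replicate 2 of the middle of dark was high. With the 12 LN libraries alone, 2 antenna genes passed. The calls of both CB12 genes also ended without replicate 1 of the end of dark or replicate 3 of the middle of dark (adjusted p up to 0.079). In the light the same genes stood much higher: Spo03024 averaged 7407 ± 1883 FPKM in mid light and 4359 ± 3479 when the light ended (SD, n = 3 each), against 1043 ± 716 at the end of dark.

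The remaining photosynthesis lists held few or no genes past the test. Of 29 nuclear genes of the photosystems and electron transport none passed (0 at an unadjusted p under 0.05, 0 by limma-voom), with a median log2 difference of 0.030, and of 19 plastid-encoded photosynthesis genes none passed (0 and 0 likewise). Of 27 Calvin cycle genes 2 were higher, among them the chloroplast aldolase FBA2 (Spo18028) with 61.6, 8.5 and 26.6 FPKM at the end of dark, against 1.14, 2.15 and 0.888 FPKM at the middle of dark. It rose by 3.45 (SE 0.53, adjusted p = 3.4e-04). Its replicate 1 at the end of dark was several fold above replicate 2, and all were above every middle-of-dark leaf. SGR (Spo26879), which takes the magnesium out of chlorophyll, had 34.9, 65.8 and 45.2 FPKM at the end of dark, against 3.999, 5.02 and 11.7 FPKM at the middle of dark (log2 difference 2.73, SE 0.54, adjusted p = 0.0028) and was the 1 gene of 11 in chlorophyll breakdown that passed. None of 190 genes of cytosolic ribosomal proteins passed (4 at an unadjusted p under 0.05, 0 by limma-voom), and none of 43 of chloroplast ribosomal proteins (0 and 0), whose median log2 difference was -0.38. All 62 genes of the chloroplast list summed to 7358, 5676 and 7747 FPKM at the end of dark. At the middle of dark they summed to 8462, 11387 and 7038 FPKM, so the sums overlapped. None of 52 proteasome genes passed (3 at an unadjusted p under 0.05, 0 by limma-voom) and none of 20 autophagy genes (1 and 0).

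**Figure D3:**
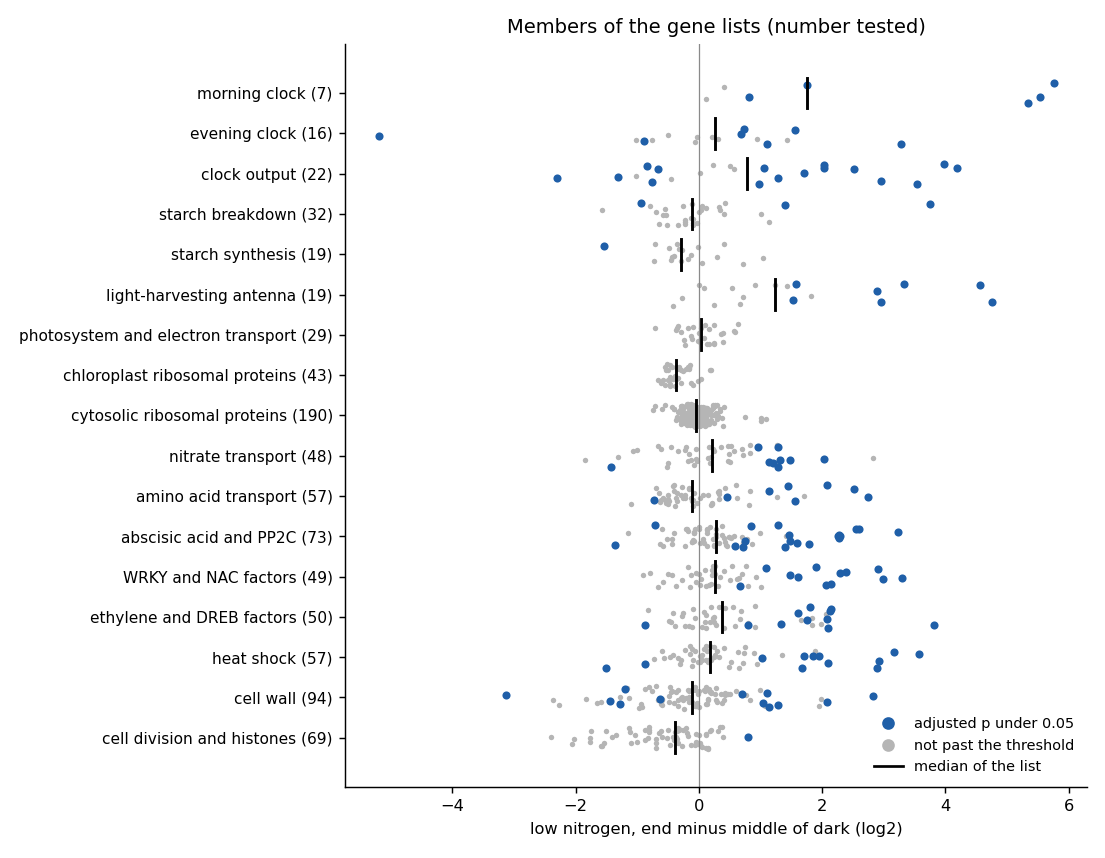
Log2 difference, end of dark minus middle of dark in LN leaves, of each tested member of 17 gene lists; blue points passed the limma test at an adjusted p under 0.05, black bars are list medians and numbers in brackets are the members tested. The morning clock and antenna lists have medians above 1, and most other medians lie near 0.

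Of 27 genes of nitrate and ammonium assimilation 1 was higher and 1 lower, a share no larger than the 8.26% called over all genes tested. Of 48 nitrate transporter relatives 8 were higher and 1 lower (median log2 difference 0.21). The higher transporters numbered 4 with the 12 LN libraries alone and 5 under the common sum of FPKM. ABA3 (Spo12934), which activates molybdenum enzymes of abscisic acid and purine metabolism, had 4.1, 1.41 and 1.54 FPKM at the end of dark, against 7.18, 8.88 and 8.65 FPKM at the middle of dark. It fell by 1.55 (SE 0.27, adjusted p = 9.4e-04). The glutamine synthetase GLNA (Spo27300) had 114, 188 and 164 FPKM at the end of dark, against 88, 92.9 and 82.1 FPKM at the middle of dark (log2 difference 0.79, SE 0.18, adjusted p = 0.0076), a call that ended with the 12 LN libraries alone (0.055) and under the common sum of FPKM (0.060). NPF5.10 (Spo01072), a member of the NRT1/PTR transporter family, had 38.8, 26.3 and 41.9 FPKM at the end of dark, against 11.6, 12.3 and 21.5 FPKM at the middle of dark. It rose by 1.21 (SE 0.21, adjusted p = 8.9e-04). In these 3 genes the groups did not overlap. NRT2.3 (Spo25089), named after a high-affinity nitrate transporter, had 5.68, 9.39 and 10.8 FPKM at the end of dark, against 3.39, 1.35 and 2.72 FPKM at the middle of dark (log2 difference 1.47, SE 0.33, adjusted p = 0.0078), with an adjusted p of 0.059 without replicate 2 of the middle of dark. Of 7 tested genes named NPF1.2, a family member that moves nitrate in the phloem of Arabidopsis, 5 did not pass, 1 was higher and 1 lower. Spo25687 had 5.53, 7.06 and 13.1 FPKM at the end of dark, against 1.11, 1.06 and 1.49 FPKM at the middle of dark (log2 difference 2.03, SE 0.35, adjusted p = 9.4e-04), and Spo01110 had 7.2, 15.3 and 8.91 FPKM at the end of dark, against 46.7, 19.3 and 25.6 FPKM at the middle of dark. It fell by 1.43 (SE 0.37, adjusted p = 0.019). The call of Spo01110 ended with the 12 LN libraries alone (0.087) and in 3 of the 6 fits without 1 library (up to 0.11). Of 40 nitrogen regulators 3 were higher, among them BT3 (Spo14346), whose Arabidopsis relatives restrain nitrate uptake, with 118, 127 and 128 FPKM at the end of dark, against 19.3, 25.7 and 28.4 FPKM at the middle of dark. It rose by 2.31 (SE 0.38, adjusted p = 5.9e-04). Amino acid carriers had 7 of 57 members higher and 1 lower. AAP6 (Spo02077), an amino acid permease, had 84.4, 127 and 124 FPKM at the end of dark, against 35.8, 42.9 and 32.5 FPKM at the middle of dark (log2 difference 1.55, SE 0.23, adjusted p = 2.6e-04), and every end-of-dark leaf held about 2 times or more of any middle-of-dark leaf.

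Heat shock genes, which encode chaperones that refold damaged proteins and the factors that induce them, were among those higher at the end of dark. Of 57 tested, 10 were higher, 2 lower and 45 not past the test, with a median log2 difference of 0.17. HSFA6b (Spo02267), a heat shock transcription factor, had 5.91, 10.05 and 24 FPKM at the end of dark, against 0.576, 0.245 and 0.347 FPKM at the middle of dark. It rose by 3.17 (SE 0.37, adjusted p = 2.2e-05). HSP70-4 (Spo17157), a cytosolic chaperone of the HSP70 family, had 19.8, 12.9 and 63 FPKM at the end of dark, against 0.49, 0.551 and 3.77 FPKM at the middle of dark (log2 difference 3.57, SE 0.73, adjusted p = 0.0040), and HSP70 (Spo06975), another HSP70, had 11.6, 6.02 and 29 FPKM at the end of dark, against 0.308, 0.422 and 2.53 FPKM at the middle of dark. It rose by 2.89 (SE 0.58, adjusted p = 0.0036). In all of these replicate 3 was the highest leaf of the end of dark, and in both HSP70 genes it was also the highest of the middle of dark. Reads may be shared between the HSP70 genes. HSP23 (Spo12147), a small chloroplast chaperone, had 5.68, 3.2 and 4.58 FPKM at the end of dark, against 0.727, 0.291 and 0.219 FPKM at the middle of dark. It rose by 1.95 (SE 0.28, adjusted p = 1.7e-04). HSP15.4 (Spo16568), a small heat shock protein, went the other way, with 2.59, 2.08 and 4.72 FPKM at the end of dark, against 10.5, 10.3 and 10.2 FPKM at the middle of dark (log2 difference -1.51, SE 0.36, adjusted p = 0.011), and its adjusted p was 0.056 without replicate 2 of the end of dark. The whole list summed to 1879, 2156 and 2570.2 FPKM at the end of dark, against 1541, 1543 and 1627 FPKM at the middle of dark, without overlap.

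The lists of abscisic acid, of ethylene and DREB factors and of gibberellin, cytokinin and brassinosteroid had more members higher than lower. Over all genes tested 985 were higher and 397 lower. Under the common sum of FPKM the 3 lists had 13 higher and 2 lower, 7 and 1, and 6 and 3. Over all genes tested the common sum gave 664 higher and 608 lower. The auxin list had 1 of 83 members higher and 3 lower, a median log2 difference of -0.29 and 24.1% of members above 0. Of 73 genes of abscisic acid signalling or with the name of a protein phosphatase 2C, 17 were higher and 2 lower (median log2 difference 0.27). At1g34750 (Spo23852), a phosphatase 2C, had 80.6, 228 and 191 FPKM at the end of dark, against 33.5, 19.5 and 24 FPKM at the middle of dark. It rose by 2.55 (SE 0.30, adjusted p = 2.8e-05). ABF2 (Spo07813), a bZIP factor that binds abscisic acid response elements, had 87.8, 265 and 269.7 FPKM at the end of dark, against 59.3, 33.2 and 26 FPKM at the middle of dark. It rose by 2.28 (SE 0.33, adjusted p = 1.8e-04). SAG113 (Spo09215), a phosphatase of leaf senescence in Arabidopsis, had 9.04, 46.5 and 50.9 FPKM at the end of dark, against 4.3, 2.75 and 0.518 FPKM at the middle of dark. It rose by 3.23 (SE 0.48, adjusted p = 2.6e-04). In these 3 genes replicate 1 was well below the other end-of-dark leaves but above every middle-of-dark leaf. The abscisic acid 8'-hydroxylase CYP707A4 (Spo22545), which breaks the hormone down, had 25.5, 16.7 and 18.5 FPKM at the end of dark, against 2.18, 5.25 and 3.11 FPKM at the middle of dark. It rose by 2.27 (SE 0.37, adjusted p = 6.4e-04). The receptor PYL5 (Spo18840) fell by 1.35 (adjusted p = 0.0091, and 0.0503 with the 12 LN libraries alone). Without replicate 2 of the end of dark and replicate 3 of the middle of dark, the leaves farthest from their groups, 9 genes of the list were higher and 3 lower.

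Of 50 genes of ethylene synthesis and signalling and of the related DREB factors, 10 were higher and 1 lower (median log2 difference 0.37). ERF3 (Spo14170), an ERF repressor, had 91.5, 179 and 129 FPKM at the end of dark, against 60.4, 51.6 and 40.8 FPKM at the middle of dark. It rose by 1.34 (SE 0.21, adjusted p = 3.8e-04). The 2 genes named ACS1, which make the ethylene precursor ACC, have neighbouring identifiers and may share reads. Spo09333 had 7.99, 10.7 and 9.72 FPKM at the end of dark, against 2.05, 1.7 and 0.81 FPKM at the middle of dark (log2 difference 2.08, SE 0.37, adjusted p = 0.0013), and Spo09334 differed by 2.12. DREB1A (Spo26866), a cold and dehydration factor, had 5.67, 66.7 and 6.39 FPKM at the end of dark, against 0.216, 0 and 0 FPKM at the middle of dark, so that replicate 2 alone held most of its transcript (log2 difference 3.81, SE 0.73, adjusted p = 0.0023, and an adjusted p of 0.11 by limma-voom). Of 44 genes of gibberellin, cytokinin and brassinosteroid, 8 were higher and 2 lower. CKX5 (Spo01919), a cytokinin oxidase, had 14.6, 105 and 82 FPKM at the end of dark, against 4.26, 5.75 and 4.45 FPKM at the middle of dark (log2 difference 3.16, SE 0.47, adjusted p = 2.6e-04), and LOG3 (Spo14489), which releases active cytokinin, fell by 1.38 (SE 0.24, adjusted p = 9.1e-04). GA2OX2 (Spo17586), a gibberellin 2-oxidase, had 5.14, 30.2 and 5.26 FPKM at the end of dark, against 0.367, 0.337 and 0.0461 FPKM at the middle of dark (log2 difference 3.1, SE 0.44, adjusted p = 1.7e-04), again with replicate 2 highest. Among WRKY and NAC factors, families of stress and senescence regulators, 12 of 49 passed, all higher (median log2 difference 0.27). WRKY7 (Spo22065) had 16.8, 31.7 and 42.7 FPKM at the end of dark, against 7.58, 3.61 and 4.59 FPKM at the middle of dark (log2 difference 2.28, SE 0.30, adjusted p = 7.0e-05), and NAC061 (Spo19692) had 13.6, 6.58 and 21.8 FPKM at the end of dark, against 1.31, 0 and 1.23 FPKM at the middle of dark. It rose by 2.98 (SE 0.48, adjusted p = 5.3e-04). The lowest end-of-dark leaf of both was above the highest middle-of-dark leaf. With the 12 LN libraries alone, 6 heat shock genes, 11 abscisic acid genes, 6 ethylene and DREB genes and 5 WRKY and NAC genes passed on the higher side.

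**Figure D4:**
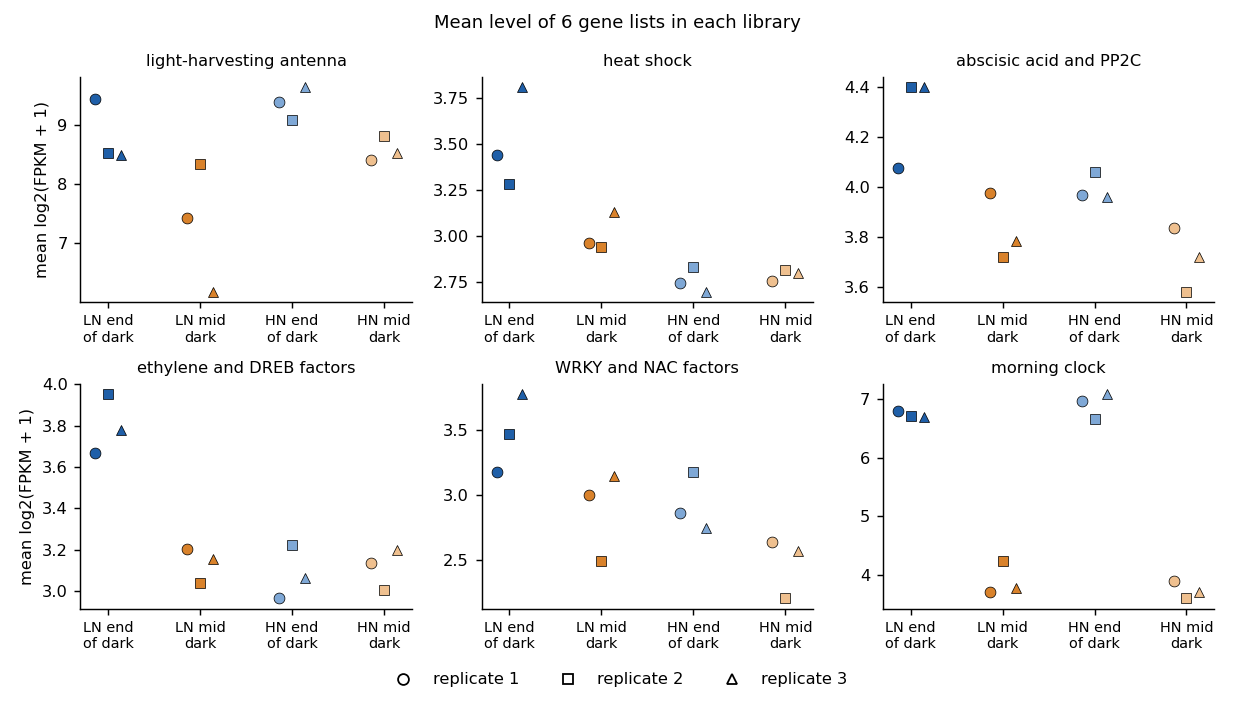
Mean log2(FPKM + 1) over the tested members of 6 gene lists in each library of the LN end of dark, LN middle of dark, HN end of dark and HN middle of dark; markers show the replicate number. In LN leaves every end-of-dark mean lies above every middle-of-dark mean in all 6 lists, by the least in the WRKY and NAC list, and in HN leaves the heat shock and ethylene means of the times overlap.

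The lowest log2 differences among named genes with at least 5 FPKM, after EFL1, were those of polyphenol oxidase (PPO, Spo10760) at -4.67 and the 12KD gene above. AMP (Spo28197), an antimicrobial peptide, had 0.549, 0.325 and 0.825 FPKM at the end of dark, against 13.4, 12.7 and 52.5 FPKM at the middle of dark (log2 difference -3.82, SE 0.72, adjusted p = 0.0021, and an adjusted p of 0.18 by limma-voom). CIA2 (Spo03027), a factor that promotes genes of protein import into chloroplasts, had 4.93, 7.89 and 1.55 FPKM at the end of dark, against 72.8, 61.8 and 18.8 FPKM at the middle of dark. It fell by 3.14 (SE 0.57, adjusted p = 0.0015). FKBP65 (Spo20539), a folding enzyme, had 5.84, 1.4 and 3.47 FPKM at the end of dark, against 48.5, 60.2 and 11.5 FPKM at the middle of dark. It fell by 3.0 (SE 0.50, adjusted p = 7.5e-04). Replicate 3 was the lowest middle-of-dark leaf for CIA2 and FKBP65 and the highest for AMP. ASR1 (Spo20053), a small hydrophilic protein of drought and ripening, had 9.1, 11.6 and 6.31 FPKM at the end of dark, against 86.6, 63.6 and 34.1 FPKM at the middle of dark. It fell by 2.58 (SE 0.32, adjusted p = 4.6e-05). It averaged 899.9 ± 160.3 FPKM when the light ended and 129 ± 27.1 in mid light (SD, n = 3 each), and the end of dark was its lowest time. The call of PPO rested on the middle-of-dark replicate 2 and end-of-dark replicate 3, without either of which its adjusted p missed the threshold (up to 0.096).

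Of 94 cell wall genes 7 were higher and 5 lower. Over all genes tested 5.88% were higher and 2.37% lower. EXPA8 (Spo08297), an expansin that loosens walls, had 2.76, 1.84 and 1.82 FPKM at the end of dark, against 11.9, 20.6 and 70.8 FPKM at the middle of dark (log2 difference -3.13, SE 0.39, adjusted p = 5.0e-05), with the middle-of-dark leaves spread widely and all above the end of dark. CSLE1 (Spo12716), a cellulose synthase-like gene, had 29, 28.5 and 35 FPKM at the end of dark, against 67.3, 62.6 and 105 FPKM at the middle of dark. It fell by 1.28 (SE 0.21, adjusted p = 5.3e-04), while CSLD2 (Spo23361), another member of that superfamily, had 6.72, 29.96 and 21.3 FPKM at the end of dark, against 3.44, 2.58 and 3.48 FPKM at the middle of dark. It rose by 2.08 (SE 0.40, adjusted p = 0.0023). Of 118 genes of fatty acids, wax and cutin, 11 were higher and 4 lower, to be read beside the same shares. The wax elongases CUT1 (Spo21466) and KCS1 (Spo18383) are also epidermis markers. CUT1 had 71.8, 94.7 and 111 FPKM at the end of dark, against 59.4, 46.7 and 39.8 FPKM at the middle of dark (log2 difference 0.91, SE 0.19, adjusted p = 0.0048), and KCS1 had 96.5, 146 and 99.5 FPKM at the end of dark, against 69.9, 34.9 and 29.4 FPKM at the middle of dark. It rose by 1.41 (SE 0.30, adjusted p = 0.0055). These 2 of 4 tested epidermis markers were higher, whereas FDH and PDF2 were not past the test. The summed level of all 7 epidermis markers was 325, 324 and 305 FPKM at the end of dark, against 245, 189 and 147 FPKM at the middle of dark, and 2 of the 7 were at 0 in all 6 libraries. Of 4 tested guard cell markers 1, SLAC1 (Spo26898), an anion channel of stomatal closure, was higher, with 6.3, 5.37 and 5.75 FPKM at the end of dark, against 1.87, 1.86 and 1.63 FPKM at the middle of dark. It rose by 1.29 (SE 0.21, adjusted p = 5.9e-04). The summed level of the guard cell markers was 31.9, 18.4 and 22.2 FPKM at the end of dark, against 18.5, 18 and 14.1 FPKM at the middle of dark. The part of tissue composition in these differences was not tested.

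None of the 5 most abundant named genes passed the test. The wound-induced proteinase inhibitor PIIF (Spo02304) had 16608, 15695 and 21997 FPKM at the end of dark, against 12005, 12867 and 8694 FPKM at the middle of dark, in groups that did not overlap (log2 difference 0.70, adjusted p = 0.58). The others, the metallothionein pKIWI504 (Spo02904), a Rubisco small subunit RBCS2 (Spo12437), Rubisco activase RCA (Spo00116) and the antenna gene LHCB5 (Spo01700), had log2 differences of 0.32, -0.27, 0.57 and 0.54, with adjusted p from 0.32 to 0.76.

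The same stretch of darkness was sampled in HN leaves, and there 1363 genes passed (8.14% of those tested), 861 higher (5.14%) and 502 lower (3%) at the end of dark. Under a common sum of FPKM the HN split was 459 higher and 2030 lower, and the median over all genes moved to -0.27. Without 1 HN library the count was 680 (end of dark, replicate 1), 779 (end of dark, replicate 3), 545 (middle of dark, replicate 2) or 754 (middle of dark, replicate 3). The LN and HN comparisons share no library. Of the 985 genes higher in LN leaves, 330 were also higher in HN leaves, which is 33.5% of the LN genes and 38.3% of the HN genes. Of the 397 lower in LN leaves, 156 were also lower in HN leaves, 39.3% of the LN genes and 31.1% of the HN genes. The LN-higher genes had a median log2 difference of 1.34 in LN and 0.68 in HN leaves, and 88.9% of them were above 0 in HN leaves, against 51.4% of all genes tested. The LN-lower genes had medians of -0.98 in LN and -0.62 in HN leaves. Since the genes were picked by the LN test, their LN values are biased away from 0 and the smaller HN medians are a description only.

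The clock genes with the largest changes moved in the same direction at both nitrogen levels. LHY had log2 differences of 5.76 in LN and 6.58 in HN leaves, and the LN change minus the HN change was -0.82 (SE 0.42, adjusted p = 0.60). For EFL1 (Spo11195) the values were -5.19 in LN and -4.69 in HN leaves, with a difference of -0.50 (SE 0.55, adjusted p = 0.88). BAM1 differed more in size: its HN leaves had 26.1, 27.2 and 29.2 FPKM at the end of dark, against 5.66, 6.76 and 4.87 FPKM at the middle of dark, a log2 difference of 2.08 against 3.75 in LN leaves, and the difference of 1.67 (SE 0.43, adjusted p = 0.13) missed the threshold. Of the heat shock list 2 genes passed in HN leaves, both lower (median -0.053), and of the ethylene and DREB list 1 was higher and 4 lower (median -0.12). Of the abscisic acid and phosphatase 2C list 10 were higher and 2 lower in HN leaves (median 0.24). Of WRKY and NAC factors 5 were higher and 1 lower (median 0.38). No gene of these lists passed the test of the LN change minus the HN change. The LN change minus the HN change missed the threshold in HSFA6b, at 2.09 (SE 0.52, adjusted p = 0.12) and in CKX5, at 2.65 (SE 0.66, adjusted p = 0.12).

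Tested directly, the LN and HN changes differed in 13 genes (0.0777% of those tested), 8 with the LN change above the HN change and 5 below it, while 1512 genes had an unadjusted p under 0.05. GA2OX1 (Spo08381), an enzyme that inactivates gibberellin, had 4.2, 5.68 and 5.3 FPKM at the end of dark, against 1.72, 0.468 and 0.541 FPKM at the middle of dark in LN leaves. In HN leaves it had 0.737, 1.3 and 0.943 FPKM at the end of dark, against 1.61, 2.48 and 2.23 FPKM at the middle of dark. Every end-of-dark leaf was above every middle-of-dark leaf at LN and below at HN, and the LN change minus the HN change was 2.36 (SE 0.33, adjusted p = 0.0071). ERD7 (Spo21127), a gene of early drought response, had 18, 66.2 and 31.5 FPKM at the end of dark, against 10.2, 8.43 and 4.33 FPKM at the middle of dark in LN leaves. In HN leaves it had 3.89, 8.08 and 3.7 FPKM at the end of dark, against 9.08, 11.9 and 8.35 FPKM at the middle of dark, and the difference was 2.92 (SE 0.55, adjusted p = 0.048). The groups did not overlap at either nitrogen level and went opposite ways. CAX5 (Spo04542), a vacuolar cation and proton exchanger, had 13.5, 20.8 and 20.1 FPKM at the end of dark, against 8.07, 8.46 and 12 FPKM at the middle of dark in LN leaves. In HN leaves it had 7.06, 8.75 and 8.38 FPKM at the end of dark, against 11.4, 12.1 and 11.6 FPKM at the middle of dark, and the difference was 1.35 (SE 0.24, adjusted p = 0.036). PRA1F2 (Spo30007), of a family of membrane traffic proteins, was lower at the end of dark in LN leaves (log2 difference -0.70) and higher in HN leaves (0.82), with a difference of -1.52 (SE 0.24, adjusted p = 0.021), and its LN call ended without replicate 2 or 3 of the end of dark (adjusted p up to 0.063). With the 12 dark libraries alone in the fit, limma called 0 genes (1476 at an unadjusted p under 0.05), so that every one of these calls was lost, and limma-voom on all libraries called 8. The count of 13 also depended on single libraries. Of the LN end of dark, it was 120 without replicate 1 and 2 without replicate 3, and of the LN middle of dark 4 without replicate 1 and 5 without replicate 2. Of the HN end of dark, it was 2 without replicate 1, 31 without replicate 2 and 2 without replicate 3, and of the HN middle of dark 38, 2 and 2 likewise. Under a common sum of FPKM it was 36, 29 above and 7 below.

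**Figure D5:**
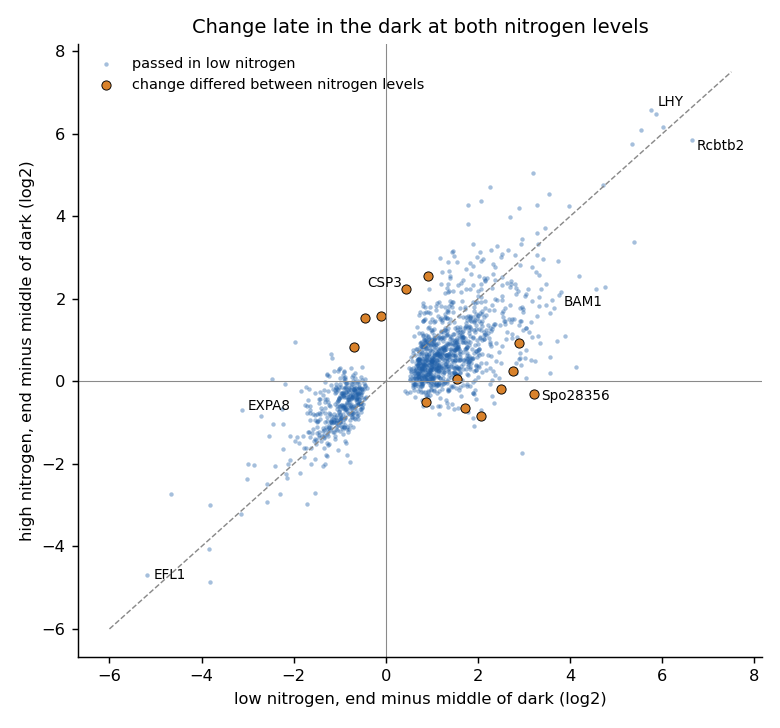
Log2 difference, end of dark minus middle of dark, in LN leaves (x axis) and HN leaves (y axis) of the genes that passed the LN test, with the genes whose LN and HN changes differed in orange and a dashed line of equality. Of the genes higher in LN leaves, 88.9% lie above 0 on the y axis, and the genes were chosen by the x axis.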

How the data were processed

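Strand-marking (dUTP) libraries of leaf messenger RNA were run, per the labels, on a NovaSeq X Plus. HISAT2, RSEM and DESeq2 1.20.0 appear in the submitters' processing notes, without their roles, and the reference is Sp75 per the series title; the counting of reads shared by similar genes was not given in the sources used here. The authors deposited 1 table of FPKM per gene and library. Its values are whole fragments per gene (100.0% within 0.01 of a whole number), divided by gene length and by a library factor that matched a median-of-ratios factor within 0.0078%, so FPKM sums differ between libraries.

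Differences were computed here as end of dark minus middle of dark on log2(FPKM + 1), which understates changes of low genes, with limma 3.58.1 in R 4.3.3. The model had 8 group means over 24 libraries (16 residual degrees of freedom) and a variance trend, with Benjamini-Hochberg adjustment over 16740 genes (at least 1 FPKM in at least 3 of the 6 LN dark libraries), and a gene was called at an adjusted p under 0.05. The interaction is the LN change minus the HN change. Whole fragments were also tested with limma-voom. Lists were matched by protein name (17585 of 25494 genes had one) and have no test of their own. No gene identifier matched the RefSeq table, so no sequence is shown.

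Named genes come from all tested members of the clock and starch breakdown lists, the 3 of each other list with the smallest adjusted p and a mean of at least 5 FPKM, the 10 highest and 10 lowest called genes with a name, that mean and groups that do not overlap, up to 5 interaction genes under the same limits, and the 5 most abundant. Members and lists were chosen with earlier results of these data known, and list members beyond these limits were named after their values were seen. Alternatives were another pseudocount, other filters, scalings and sets of libraries, a replicate block and leaving out each library. The script was tested on simulated data.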

Additional observations from a re-analysis of the deposited data

Results flagged for a closer look

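In 13 genes the change from the middle to the end of dark differed between LN and HN leaves by the limma interaction test, and each is given here as the LN change minus the HN change on the log2 scale. All 13 calls were lost with the 12 dark libraries alone in the fit (0 genes by limma, 1476 at an unadjusted p under 0.05). The genes with a protein name and a higher LN change were ERD7 (Spo21127) at 2.92, GA2OX1 (Spo08381) at 2.36 and CAX5 (Spo04542) at 1.35. Those with a name and a lower LN change were CSP3 (Spo28146), a cold shock domain protein, at -1.79, abhd17c (Spo08820), a hydrolase, at -1.7 and PRA1F2 (Spo30007) at -1.52. Of the genes without a name, Spo28356 stood at 3.53, Spo21604 at 2.69, Spo24524 at 2.5, Spo10368 at 1.95 and Spo02982 at 1.47, all with the higher LN change, and Spo07115 at -1.99 and Spo23595 at -1.66 with the lower one. CSP3, which binds nucleic acids, had 135, 92.4 and 124 FPKM at the end of dark, against 94.4, 85.7 and 75.4 FPKM at the middle of dark in LN leaves. In HN leaves it had 311, 224 and 363 FPKM at the end of dark, against 89.8, 47.9 and 54.1 FPKM at the middle of dark, and the adjusted p of the difference was 0.038. Spo28356, the gene with the largest difference, had 15.8, 16.3 and 46.1 FPKM at the end of dark, against 0.707, 0.768 and 4.62 FPKM at the middle of dark in LN leaves. In HN leaves it had 0, 0.173 and 0 FPKM at the end of dark, against 0, 0.158 and 0.928 FPKM at the middle of dark, and the adjusted p of the difference was 0.038. Of the 13 genes, 10 passed in LN leaves by themselves and 6 in HN leaves. All of these except ERD7, CAX5 and PRA1F2 were named after their values were seen.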

How the results depend on the processing

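The LN count of 1382 genes lay between 1235 and 1603 under another pseudocount or filter, both other scalings, robust moderation, array weights, limma-voom and a replicate block (1253). It was 894 at a change of at least 1, 152 with the 6 libraries alone, 624 with 12, 123 with the block and 6 libraries, and 734 to 1597 when 1 library was left out. The HN count was 825 at a change of at least 1, 2489 under a common sum of FPKM, 2408 with its 6 libraries alone, 3693 with array weights and 545 to 1101 without 1 library. The interaction count was 5 with a pseudocount of 0.1, 7 at a mean of at least 5 FPKM, 36 under a common sum, 200 with array weights, 8 by limma-voom, 20 with the block, 0 with the 12 dark libraries alone (1476 genes at an unadjusted p under 0.05), 2 to 120 without 1 library, and 117 without LN end-of-dark replicate 2 and middle-of-dark replicate 3, a setting chosen after seeing the data. Whether equal numbers paired the samples was not settled. Deviations of same-numbered leaves correlated at -0.20, -0.047 and 0.49, and of the end-of-dark leaves only replicate 3 correlated best with its own number. Deviations from the mean of 3 leaves sum to 0, so these correlations depend on each other and cannot decide it. Of 98 called genes named here, 96 passed with the block, 84 with 12 libraries, 38 with 6, and 19 under every setting. No called gene reversed. Some genes not past the test changed sign. RVE6 stood at -0.027 under a common sum. Without 1 library, or without those 2, log2 differences ran from -0.068 to 0.62 for RVE1, -0.12 to 0.044 for ELF3, -1.63 to 0.30 for BAM3, -0.068 to 0.97 for LHCB5, -0.56 to 0.061 for RBCS2 and -0.24 to 0.036 for abhd17c; the cause was not tested. With 3 leaves per group, differences within the LN spread were not detectable.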

Other observations

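Of 37 potassium transport genes 4 passed the limma test in LN leaves, all higher at the end of dark, and of 40 genes of respiration 1 was higher and 2 lower. Over all genes tested 8.26% passed, 5.88% higher and 2.37% lower. The lists were not tested as sets, and the values below are of single genes. HAK13 (Spo19211), a potassium transporter of the KUP/HAK/KT family, had 7.54, 9.76 and 15.2 FPKM at the end of dark, against 1.19, 1.97 and 3.11 FPKM at the middle of dark. It rose by 1.93 (SE 0.25, adjusted p = 6.9e-05). KAT2 (Spo12853), a potassium channel active in guard cells of Arabidopsis, had 17.5, 17.6 and 16.2 FPKM at the end of dark, against 11, 10.3 and 7.4 FPKM at the middle of dark. It rose by 0.79 (SE 0.15, adjusted p = 0.0026). In both genes every end-of-dark leaf was above every middle-of-dark leaf. The mitochondrial uncoupling protein PUMP2 (Spo16874) had 4.93, 1.78 and 4.7 FPKM at the end of dark, against 16.8, 28.4 and 15.3 FPKM at the middle of dark. It fell by 2.17 (SE 0.31, adjusted p = 1.8e-04). The NADP-dependent isocitrate dehydrogenase IDHC (Spo16817) had 36.6, 74.4 and 41.1 FPKM at the end of dark, against 239, 152 and 101 FPKM at the middle of dark. It fell by 1.66 (SE 0.34, adjusted p = 0.0038). Neither pair of groups overlapped. In HN leaves PUMP2 had a log2 difference of -2.26 (SE 0.31, adjusted p = 1.1e-04) and was lower too.

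Of 85 pathogenesis-related proteins and inhibitors 5 were higher and 6 lower. The cysteine proteinase inhibitor Os01g0270100 (Spo04116) had 135, 247 and 191 FPKM at the end of dark, against 75.9, 52.9 and 47.4 FPKM at the middle of dark (log2 difference 1.67, SE 0.25, adjusted p = 2.8e-04), and PR4 (Spo17807), a chitin-binding defence protein, had 5.84, 8.31 and 12 FPKM at the end of dark, against 3.74, 2.02 and 3.4 FPKM at the middle of dark. It rose by 1.24 (SE 0.24, adjusted p = 0.0023). In HN leaves their log2 differences were 0.30 and 0.075, but the LN change minus the HN change missed the threshold at 1.37 (SE 0.36, adjusted p = 0.13) for the inhibitor and 1.16 (SE 0.33, adjusted p = 0.19) for PR4. Among 57 amino acid carriers, AVT6E (Spo16147), a vacuolar carrier, had 11, 6.84 and 14.7 FPKM at the end of dark, against 3.36, 4.07 and 5.15 FPKM at the middle of dark. It rose by 1.14 (SE 0.24, adjusted p = 0.0042). Of 69 cell division and histone genes 1 passed, and the list median was -0.38 in LN and -0.72 in HN leaves, against -0.008 and 0.014 over all genes tested. The list means of log2(FPKM + 1) overlapped in LN leaves, at 3.24, 2.47 and 2.80 at the end of dark. At the middle of dark they were 3.11, 4.14 and 2.93, with replicate 2 far above the others. In HN leaves they were 3.15, 2.79 and 3.16, against 3.66, 4.07 and 3.85, without overlap. None of 20 photorespiration genes passed in LN leaves (5 at an unadjusted p under 0.05, 0 by limma-voom), nor any of 19 aquaporins (2 and 0).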
